A study of Homo sapiens with 6 samples.

Results

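The glycolytic enzymes, their transporters and the genes that hypoxia induces were compared between SUM-159 cells that stably carry an SH3GL2 plasmid and SUM-159 cells that carry the empty vector. SUM-159 is a triple-negative breast cancer (TNBC) cell line, and SH3GL2 encodes endophilin A1, a membrane-bending protein of endocytosis that the study treats as a metastasis suppressor. The genes were listed by name, as glycolytic enzymes and targets of hypoxia-inducible factor (HIF). Of 44 listed genes, 41 had at least 1 probe set of their own on the array, with 75 probe sets in all among the 22215 tested. SLC16A1, SLC16A3 and CA9 had no probe set under their symbol in the annotation used and were not analysed here. The SLC2A3 sequence is also read by 2 probe sets shared with SLC2A14, which were left out of all counts.

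RNA of 3 empty vector and 3 SH3GL2 samples was hybridized to Affymetrix human expression arrays, 1 array per sample. The vector of both groups was pcDNA 3.1, and the SH3GL2 group carried the SH3GL2 insert in it. Stable clones were kept in G418, and whether each group was 1 clone or several, and whether the triplicates were separate cultures, is not given in the sources used here, so every p-value measures only the spread between these arrays. The study made the arrays to look for genes downstream of SH3GL2. Values are log2 signals as deposited, so that a difference of 1 is a 2-fold difference. Array medians ran from 6.97 to 7.02. A signal reference was taken from 83 probe sets of 54 genes of other organs, whose means had a median of 4.78. Their 95th percentile, 7.15, is called the reference level here. The SH3GL2 probe set, at 3.22 ± 0.04 (SD, n = 3) in the empty vector group and 3.26 ± 0.09 in the SH3GL2 group, lay below the reference median and could not check the labels. All 7 markers of mesenchymal-like breast cancer lines that were examined lay above the reference level, and 4 of them were lower with SH3GL2 in limma, namely AXL (-0.49 on the log2 scale, adjusted p = 1.10e-04), FN1 (-0.31, adjusted p = 0.00592), CAV1 (-0.30, adjusted p = 0.00267) and SPARC (-0.25, adjusted p = 0.0401). By the probe set with the highest mean, 2.36% of all 11963 genes were lower. Of 8 luminal markers, KRT18, KRT8 and GATA3 lay above the reference level, the other 5, CDH1 and EPCAM among them, lay below it, and none was called. The part of these markers in the results was not tested. Because RNA came from whole cultures, a change in a few cells and a smaller change in every cell cannot be told apart.

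Glycolysis splits glucose into pyruvate in the cytosol. Hexokinase traps glucose in the cell, phosphofructokinase commits it to the pathway, aldolase cleaves the sugar, and the lower enzymes then recover energy as ATP. Pyruvate is either reduced to lactate by lactate dehydrogenase or enters mitochondria through pyruvate dehydrogenase, which the PDK kinases switch off. HIF, a transcription factor whose alpha subunits are destroyed when oxygen is present, raises many of these genes together with genes of angiogenesis, pH control and mitophagy. Triple-negative tumors are known for high glycolysis and for HIF activity.

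Most of the 41 genes differed little between the groups. Taking for each gene the probe set with the highest mean, 4 genes were higher with SH3GL2 (PFKM, PFKFB3, ALDOC and CA2) and none was lower by limma (threshold 0.05 on the p adjusted over all 22215 probe sets). At an unadjusted p under 0.05, 11 were higher, or 26.8%, and 3 lower, or 7.32%, in limma. Over all genes 9.94% were higher and 7.56% were lower at that level. In an analysis of variance of each probe set, 9 were higher and 2 lower before adjustment, and none passed after it. For that analysis the unadjusted share of all genes was not counted. The 4 genes make 9.76% of the 41, whereas 2.54% of all 11963 genes measured in this way were higher and 2.36% were lower. The 41 genes were brighter than most: 37 of them had a group mean above the reference level, against 6749 of the 11963. The part of signal level in the difference between these shares was not tested. Over all 75 probe sets 5 were higher, where the background was 1.99% of all probe sets, and 1 was lower, where it was 2.18%. The fifth higher probe set belonged to CA12 and the lower one to PDK3. Over the 41 genes the median log2 fold change was 0.07, and that of all genes was 0.02. In 28 of the 41 genes, or 68.3%, the SH3GL2 mean was the higher one by any amount, against 54.7% of all genes. The 95% confidence interval of the log2 fold change lay within a 1.2-fold change in either direction for 18 of the 41 genes.

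**Figure D1:**
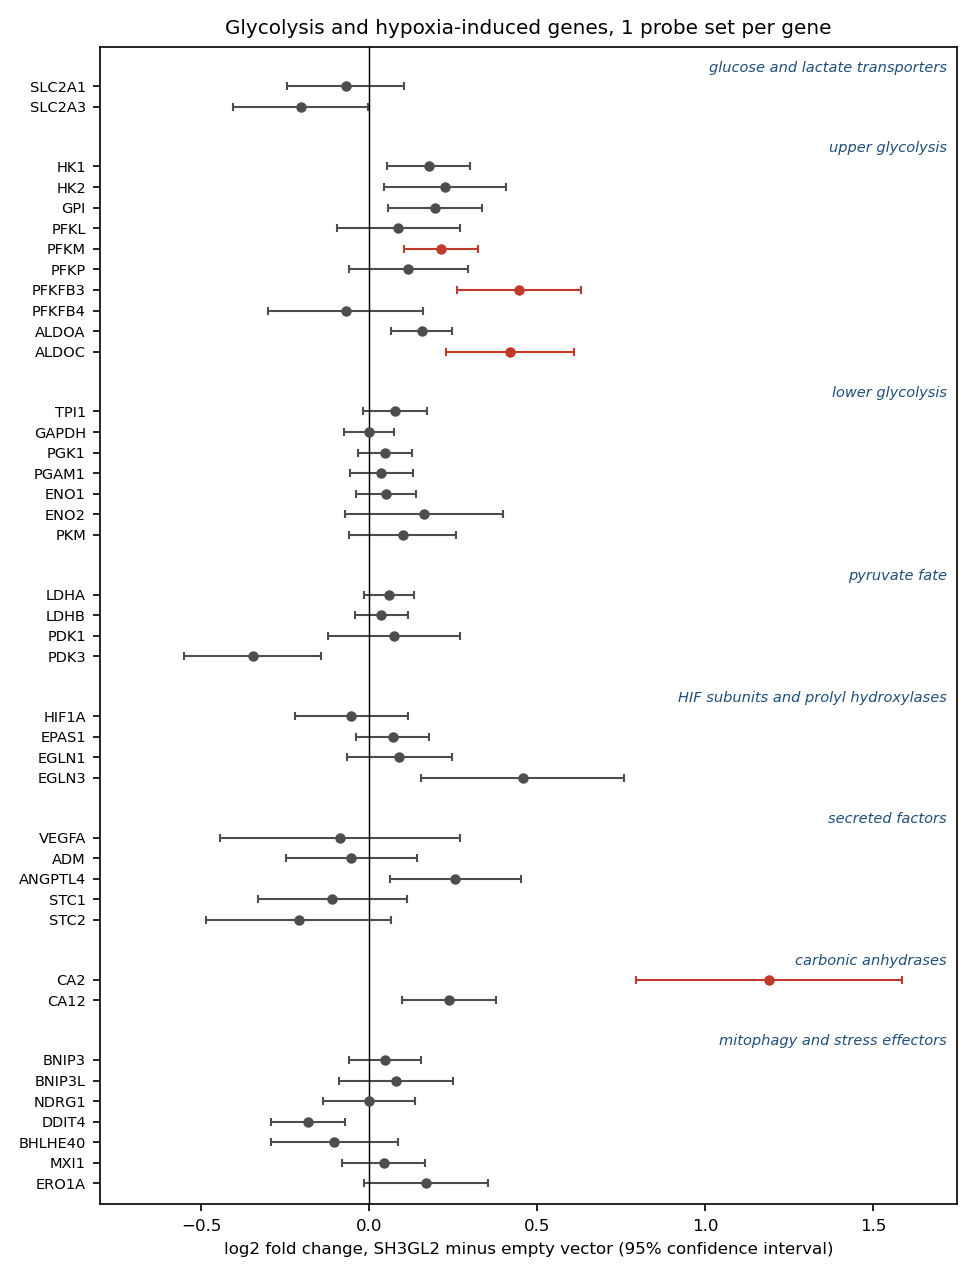
Log2 fold change (horizontal axis, SH3GL2 minus empty vector) of 41 glycolysis and hypoxia-induced genes, 1 probe set per gene, grouped by role, with points for the estimate, bars for its 95% confidence interval in limma (n = 3 arrays per group) and red for an adjusted p under 0.05. The genes of upper glycolysis lie to the right of 0 except PFKFB4, those of lower glycolysis lie close to 0, and CA2 stands farthest out at 1.19.

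The sequence that HIF binds, the hypoxia response element, has the core ACGTG or GCGTG. It was searched on both strands in the 250 bases before each transcript start in RefSeq (build GRCh38.p14), where 35 of the 41 genes had 1 or more windows. At least 1 core was found in 61.7% of the 60 windows of these genes and in 43.2% of all 35116 windows. A core that reads CACGTG is also an E-box and matches on both strands, and it was present in 13.3% of the windows of these genes and 6.34% of all windows. The windows of PFKFB3 and ALDOC are shown because these genes were higher with SH3GL2, and those of GAPDH and LDHA because they carry the same core and their signals differed little. Capitals mark the cores, and each sequence ends at the base before the start.
PFKFB3, chr10:6202682-6202931, plus strand: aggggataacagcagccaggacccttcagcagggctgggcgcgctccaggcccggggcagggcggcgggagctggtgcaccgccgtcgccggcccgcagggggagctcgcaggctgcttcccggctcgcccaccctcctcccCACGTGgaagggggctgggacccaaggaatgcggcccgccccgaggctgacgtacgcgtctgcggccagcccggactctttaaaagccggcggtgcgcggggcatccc
ALDOC, chr17:28576896-28577145, minus strand: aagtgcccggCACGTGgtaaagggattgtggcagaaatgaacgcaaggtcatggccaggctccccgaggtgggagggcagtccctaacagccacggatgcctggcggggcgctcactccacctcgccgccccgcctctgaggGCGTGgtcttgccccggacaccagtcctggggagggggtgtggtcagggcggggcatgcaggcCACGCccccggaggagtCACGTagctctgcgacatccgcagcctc
GAPDH, chr12:6535014-6535263, plus strand: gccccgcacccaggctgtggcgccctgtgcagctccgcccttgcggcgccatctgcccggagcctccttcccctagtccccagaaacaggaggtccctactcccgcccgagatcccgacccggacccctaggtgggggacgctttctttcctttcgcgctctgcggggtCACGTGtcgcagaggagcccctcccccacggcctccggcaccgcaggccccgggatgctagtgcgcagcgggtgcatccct
LDHA, chr11:18394313-18394562, plus strand: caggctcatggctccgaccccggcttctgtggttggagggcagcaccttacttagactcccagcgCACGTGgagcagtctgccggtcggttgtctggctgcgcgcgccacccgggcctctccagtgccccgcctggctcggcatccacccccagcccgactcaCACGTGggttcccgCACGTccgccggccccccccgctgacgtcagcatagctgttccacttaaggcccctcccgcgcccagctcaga

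GAPDH and LDHA were chosen for carrying the core, so their windows do not show how common it is among uncalled genes. Of the 35 genes with a window, 30 had a core in at least 1 window, called and uncalled genes among them. The 5 without a core, SLC2A1, PGAM1, PKM, LDHB and EGLN3, were not called. The window shown for each gene is the one with the most cores, out of 2 for PFKFB3 and LDHA and of 1 for ALDOC and GAPDH. ALDOC and LDHA held 4 and 3 separate sites in these windows, and PFKFB3 and GAPDH held 1 each. Of the other called genes, PFKM had a core in 1 of its 7 windows, and CA12 and PDK3 each had it in their only window. CA2 had no window and was not searched. A match is a description of the letters and no sign that HIF was bound.

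The genes of upper glycolysis were the group with the most calls. Of 10 measured, 3 were higher and none was lower, 7 were higher and none lower at an unadjusted p under 0.05 (9.94% of all genes were higher at that level), and 9 had a positive log2 fold change. Against the empty vector mean of each gene, the median of these 10 genes was 0.04, -0.06 and 0.02 in the empty vector arrays and 0.12, 0.25 and 0.19 in the SH3GL2 arrays. This median was higher in each SH3GL2 array than in each empty vector array. The same held for the median of all 41 genes, with 0.06, 0.08 and 0.07 in the SH3GL2 arrays and 0.01, -0.02 and 0.03 in the empty vector arrays. It also held for the oxygen-sensing genes and the carbonic anhydrases, and not for the other role groups.

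PFKFB3 makes the fructose bisphosphate that activates phosphofructokinase, and it is a known HIF target. Its log2 signal was 7.69, 7.61 and 7.86 in the empty vector arrays and 8.21, 8.17 and 8.12 in the SH3GL2 arrays. All SH3GL2 values lay above all empty vector values. It rose by a log2 fold change of 0.45 (standard error 0.09, 95% confidence interval 0.26 to 0.63, adjusted p = 0.00901 from limma), which is 1.36-fold. The call was lost without empty vector replicate 2 (adjusted p = 0.0549). PFKFB4, an isoenzyme of the same family, had 5.86 ± 0.16 and 5.79 ± 0.10 (SD, n = 3), both below the reference level, and the difference was -0.07 (adjusted p = 0.830).

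ALDOC is the brain-type aldolase and is known to respond to hypoxia in many cells. Its signal was 7.28, 7.18 and 7.38 with empty vector and 7.64, 7.66 and 7.80 with SH3GL2, again without overlap. It rose by 0.42 on the log2 scale, with a standard error of 0.09 (adjusted p = 0.0162), or 1.34-fold. It did not pass without empty vector replicate 2 (adjusted p = 0.0854) or without SH3GL2 replicate 3 (adjusted p = 0.108). ALDOA, the main aldolase of most cells, had 13.20 ± 0.05 and 13.35 ± 0.03 (SD, n = 3), with a log2 fold change of 0.16 just above the threshold (adjusted p = 0.0579). It passed with quantile normalization, with a robust prior and among the brighter probe sets. A further ALDOA probe set had the same 0.16 (adjusted p = 0.122).

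PFKM is the muscle-type subunit of phosphofructokinase, which cells mix with the liver-type PFKL and platelet-type PFKP subunits. Its signals were 11.13, 11.11 and 11.13 with empty vector and 11.30, 11.38 and 11.33 with SH3GL2. The groups did not overlap, and the change was small at 0.21 on the log2 scale (standard error 0.05, adjusted p = 0.0326), or 1.16-fold. It was not called without any 1 of the arrays other than SH3GL2 replicate 1 (adjusted p = 0.0656 to 0.143), nor with each array centred on its median, nor without an intensity trend in the variance. PFKL had a log2 fold change of 0.09 (95% confidence interval -0.10 to 0.27), and PFKP had 0.12 (-0.06 to 0.29), both with overlapping groups.

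The first steps of the pathway were not called. The hexokinases HK1 and HK2, which phosphorylate glucose, had log2 fold changes of 0.18 (adjusted p = 0.119) and 0.23 (adjusted p = 0.185), and GPI, the isomerase that follows them, had 0.20 (adjusted p = 0.128). The intervals of all 3 excluded 0 before adjustment over the array. HK2 passed with the replicate number as a block (adjusted p = 0.0478) and without SH3GL2 replicate 2 (0.31, adjusted p = 0.0338), whose signal of 10.33 lay below the 10.60 and 10.56 of the other SH3GL2 arrays. Its other probe set had 0.01 (adjusted p = 0.985). The glucose transporters SLC2A1 and SLC2A3 had -0.07 (adjusted p = 0.764) and -0.20 (adjusted p = 0.307), and the other probe sets of SLC2A3 gave -0.20 and -0.21, also without passing. Before adjustment the SLC2A3 interval also excluded 0 (-0.404 to -0.00254). So did that of its other probe set at -0.20 (-0.391 to -0.0157), but not that of the one at -0.21 (-0.436 to 0.0157). The negative values of the transporters stand beside the positive ones of the hexokinases, and none of the 4 genes was called.

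**Figure D2:**
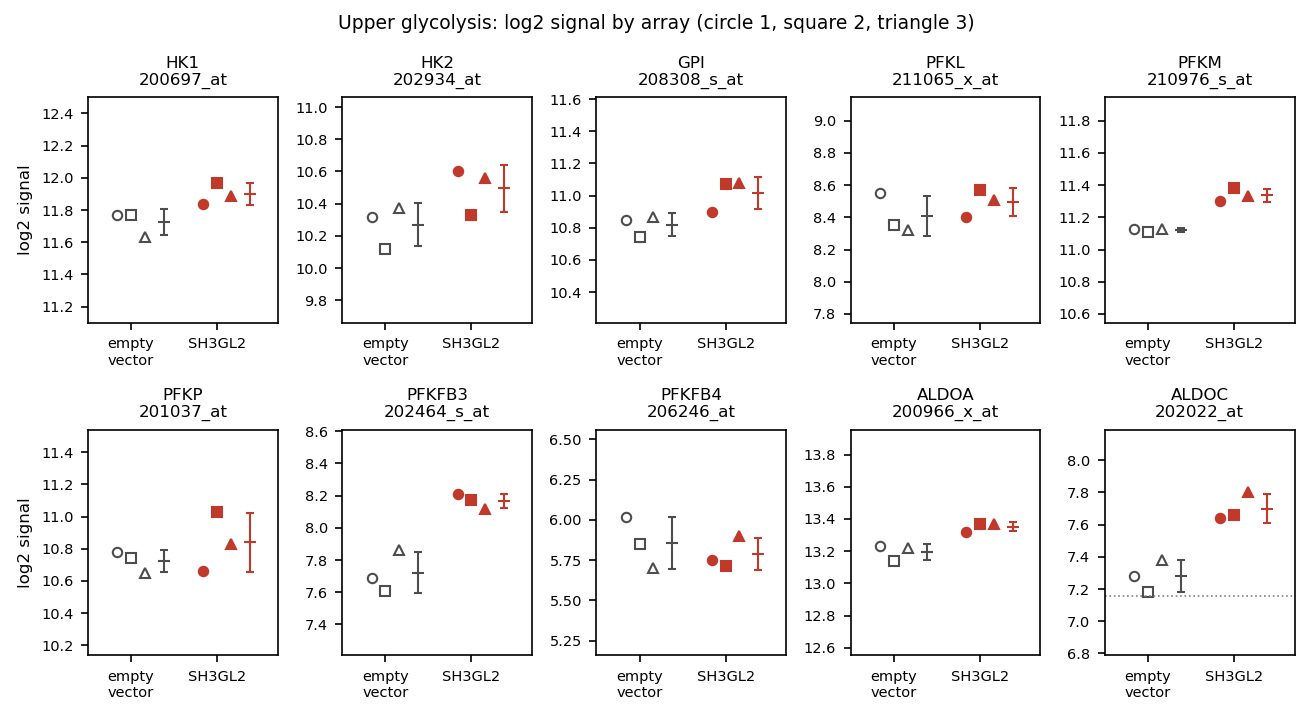
Log2 signal (vertical axis) of the 10 upper glycolysis genes, 1 point per array, with symbols for the replicate number, horizontal bars for the group mean with its SD (n = 3) and dots across the panel for the reference level of 7.15 where that falls in range. The vertical ranges differ between panels. PFKM, PFKFB3 and ALDOC lie higher in all 3 SH3GL2 arrays. So do HK1, GPI and ALDOA, which were not called, whereas the groups of HK2, PFKL, PFKP and PFKFB4 overlap.

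From the triose stage on, the signals differed little. None of the 7 lower glycolysis genes was called in either direction by limma, and none had an unadjusted p under 0.05 in either direction. GAPDH, which oxidizes glyceraldehyde phosphate and is widely used as a loading control, had 14.71, 14.67 and 14.64 with empty vector and 14.66, 14.69 and 14.67 with SH3GL2. The values interleave, and the log2 fold change was 0.00 with a 95% confidence interval of -0.07 to 0.07. The Affymetrix control probe sets at the 5′ end, middle and 3′ end of GAPDH differed between the groups by 0.02, 0.01 and -0.01. PGK1 and PKM, the enzymes that make ATP, had 0.05 (-0.03 to 0.13) and 0.10 (-0.06 to 0.26), and ENO1 and PGAM1 had 0.05 and 0.04. TPI1 had 0.08 (-0.02 to 0.17). ENO2, the neuronal enolase, had a wider interval at 0.16 (-0.07 to 0.40). The highest of these signals lay near the top of the scale, where the highest value on any array was 15.31, and whether changes are compressed there was not tested.

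The lactate dehydrogenase genes LDHA and LDHB, which interconvert pyruvate and lactate, also differed little. LDHA had 14.33, 14.38 and 14.39 with empty vector and 14.43, 14.42 and 14.43 with SH3GL2. Its groups did not overlap, but the difference of 0.06 did not pass (adjusted p = 0.456), and its interval ran from -0.01 to 0.13. LDHB had 0.04 (adjusted p = 0.720).

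PDK3, a kinase that inactivates pyruvate dehydrogenase, was lower on 1 of its 3 probe sets. That probe set had 5.73, 5.49 and 5.49 with empty vector and 5.10, 5.18 and 5.03 with SH3GL2, and it fell by 0.47 on the log2 scale, with a standard error of 0.10 (adjusted p = 0.0206). The other probe sets had -0.35 (adjusted p = 0.0611) and -0.15 (adjusted p = 0.630). The groups did not overlap on the first and second of these and overlapped on the third. All group means of PDK3 lay below the reference level, from 4.79 to 5.63, and the call was lost without empty vector replicate 1 (adjusted p = 0.0684), without SH3GL2 replicate 1 (adjusted p = 0.0714) and without SH3GL2 replicate 3 (adjusted p = 0.109), as well as with the 3 probe sets averaged (-0.32, adjusted p = 0.0540). PDK1, the best known HIF-induced kinase of this family, had 6.24 ± 0.07 and 6.32 ± 0.06 (SD, n = 3), also below that level, and a difference of 0.07 (adjusted p = 0.783).

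CA2, a cytosolic carbonic anhydrase that interconverts carbon dioxide and bicarbonate, had the largest log2 fold change of the 41 genes, from a signal that lay below the reference level with empty vector. Its signals were 6.02, 6.07 and 6.11 with empty vector and 7.15, 7.80 and 6.82 with SH3GL2. Every SH3GL2 array was higher, with replicate 2 the highest, and the SD grew from 0.05 to 0.50 (n = 3). It rose by 1.19 on the log2 scale, with a standard error of 0.18 (adjusted p = 0.00196), and without SH3GL2 replicate 2 it was 0.92 (adjusted p = 4.41e-04). Because that starting signal was not above the reference level, no fold is given for it. CA12, a membrane-bound carbonic anhydrase with its active site outside the cell, was higher on 1 of 6 probe sets, from 10.71 ± 0.08 to 10.96 ± 0.10 (SD, n = 3; log2 fold change 0.26, adjusted p = 0.0445). On that probe set the arrays had 10.62, 10.76 and 10.74 against 10.88, 11.07 and 10.94, without overlap. The other 5 had 0.24 (adjusted p = 0.0613, the probe set with the highest mean), 0.22 (adjusted p = 0.0644), 0.18, 0.08 and 0.05. The call held without SH3GL2 replicate 1 and was lost without any other single array (adjusted p = 0.0917 to 0.149). It was also lost with median centring (adjusted p = 0.0831), with the floor (adjusted p = 0.0655), without an intensity trend (adjusted p = 0.150) and with the 6 probe sets averaged (0.17, adjusted p = 0.163).

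**Figure D3:**
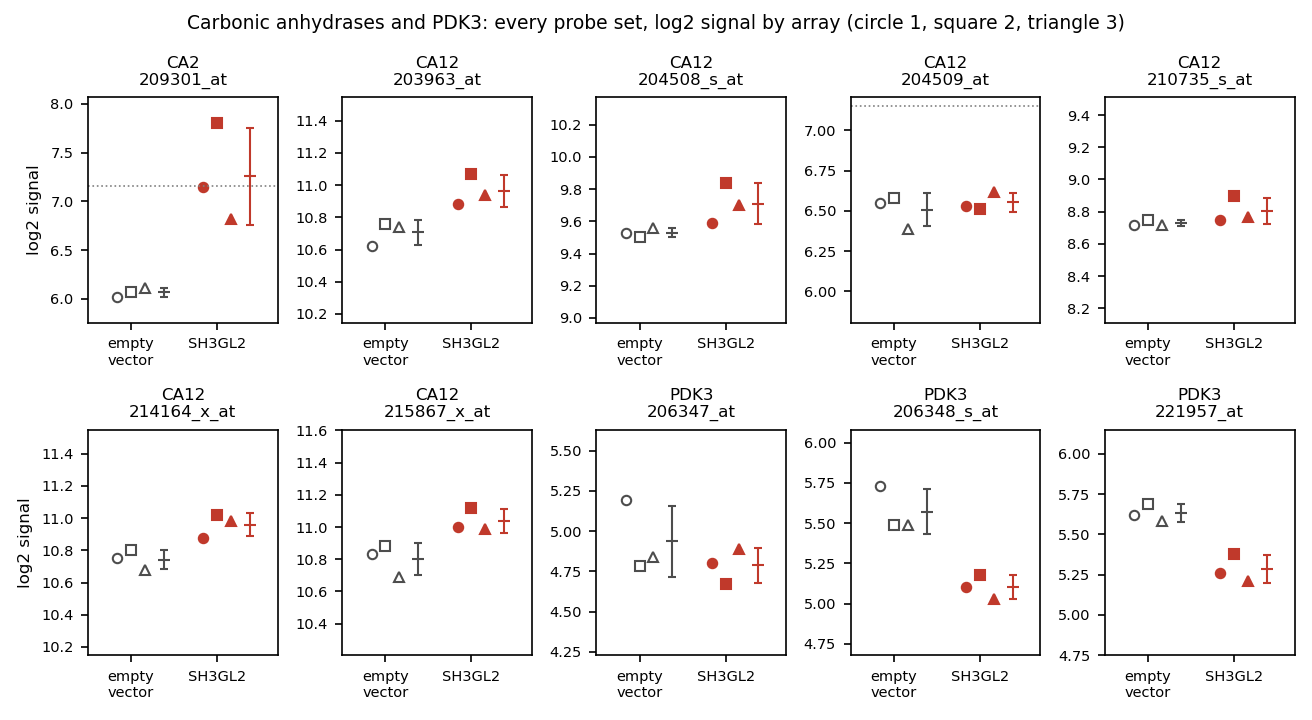
Log2 signal (vertical axis) on every probe set of CA2, CA12 and PDK3, 1 point per array, with symbols for the replicate number, horizontal bars for the group mean with its SD (n = 3) and dots across the panel for the reference level of 7.15 where that falls in range. The vertical ranges differ between panels. CA2 lies between 6.82 and 7.80 with SH3GL2 and between 6.02 and 6.11 with empty vector, and the PDK3 signals all lie under the reference line.

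The 4 oxygen-sensing genes were not called by limma, although 1 was higher before adjustment, or 25%, against 9.94% of all genes. HIF1A, the HIF alpha subunit found in nearly all cells, had 13.65, 13.66 and 13.82 with empty vector and 13.82, 13.45 and 13.70 with SH3GL2, a log2 fold change of -0.05 (95% confidence interval -0.22 to 0.11, adjusted p = 0.821). EPAS1, which encodes HIF-2 alpha, had 0.07 (-0.04 to 0.18, adjusted p = 0.578). The array reads mRNA, whereas HIF alpha is controlled mainly by the breakdown of the protein. EGLN1 and EGLN3 encode prolyl hydroxylases that mark HIF alpha for that breakdown, and both are HIF targets in turn. EGLN1 had 0.09 (adjusted p = 0.636). EGLN3 had 6.04, 6.12 and 5.93 with empty vector and 6.33, 6.86 and 6.27 with SH3GL2, so the groups did not overlap, but the log2 fold change of 0.46 did not pass (adjusted p = 0.101), and both means were under the reference level. It passed with the replicate number as a block (adjusted p = 0.0357), and without SH3GL2 replicate 2 the difference was 0.27 (adjusted p = 0.290).

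None of the 5 secreted factors was called by limma, and 4 of the 5 had a negative log2 fold change. On the probe set with the highest mean, 1 was higher before adjustment, or 20%, against 9.94% of all genes. VEGFA, the main angiogenic factor under HIF, had 10.89, 10.70 and 11.05 with empty vector and 11.00, 10.28 and 11.10 with SH3GL2. Replicate 2 was the lowest array in both groups and stood farthest down in the SH3GL2 group. The log2 fold change was -0.09 (95% confidence interval -0.44 to 0.27, adjusted p = 0.869), and without SH3GL2 replicate 2 it was 0.17 (adjusted p = 0.399). STC2, a secreted glycoprotein induced by hypoxia and by stress of the endoplasmic reticulum, had the same order, with 10.33, 9.97 and 10.26 against 10.11, 9.64 and 10.18, a difference of -0.21 (adjusted p = 0.487), and one of -0.04 without SH3GL2 replicate 2. STC1 had -0.11 (adjusted p = 0.694) and ADM, the vasodilator adrenomedullin, -0.05 (adjusted p = 0.850). ANGPTL4, an inhibitor of lipoprotein lipase, had 7.61, 7.32 and 7.42 against 7.71, 7.70 and 7.71, which did not overlap, and its log2 fold change of 0.26 did not pass (adjusted p = 0.159).

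None of the 7 mitophagy and stress genes was called by limma, although 1 was lower before adjustment, or 14.3%, against 7.56% of all genes. DDIT4, which restrains mTORC1 under hypoxia and other stress, came nearest, with 13.93, 13.87 and 13.94 against 13.77, 13.61 and 13.81. All SH3GL2 values were the lower ones, and the log2 fold change was -0.18 (95% confidence interval -0.29 to -0.07, adjusted p = 0.0667). It passed among the brighter probe sets and with the replicate number as a block. The mitophagy receptors BNIP3 and BNIP3L had 0.05 (-0.06 to 0.15) and 0.08 (-0.09 to 0.25). NDRG1, a widely used marker of HIF activity, had 10.19 in both groups, with an interval of -0.14 to 0.14. BHLHE40, a transcriptional repressor, had -0.10, MXI1, an antagonist of MYC, 0.04, and ERO1A, an oxidase of the endoplasmic reticulum, 0.17 (adjusted p = 0.366).

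**Figure D4:**
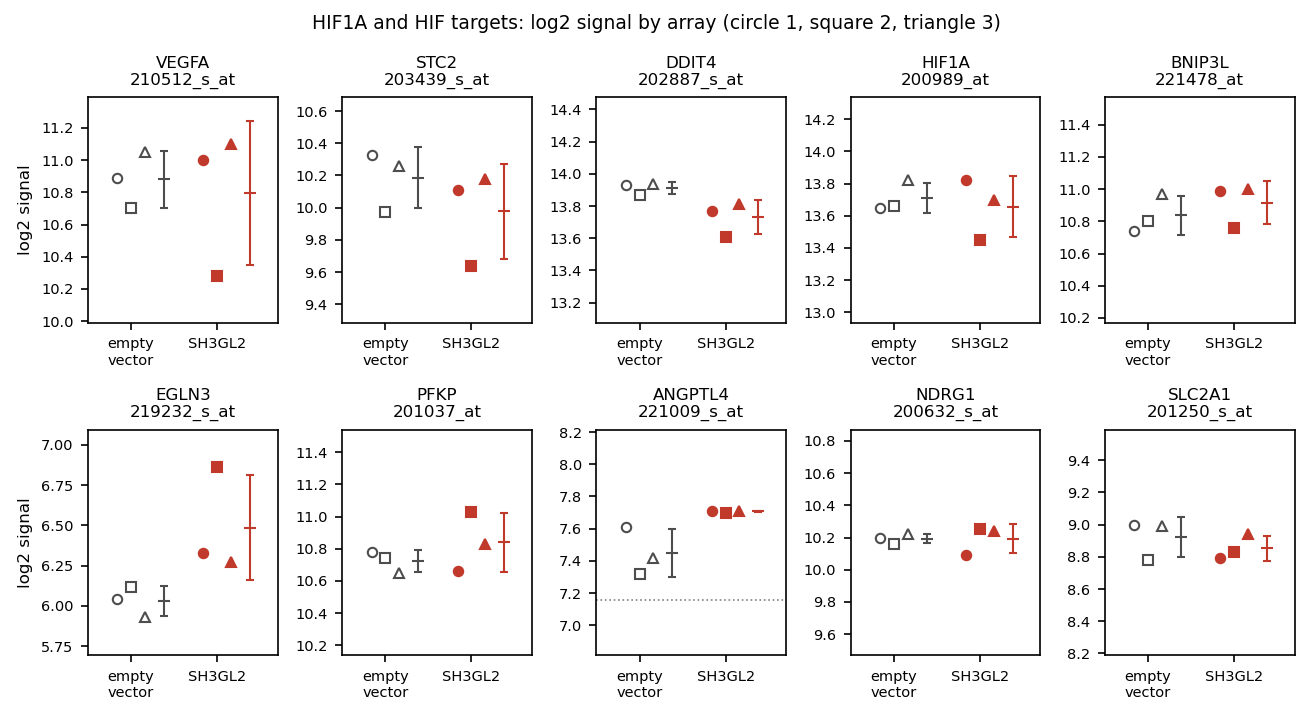
Log2 signal (vertical axis) of HIF1A and 9 other genes of the list, 1 point per array, with symbols for the replicate number, horizontal bars for the group mean with its SD (n = 3) and dots across the panel for the reference level of 7.15 where that falls in range. The vertical ranges differ between panels. SH3GL2 replicate 2 (square) is the lowest SH3GL2 array for VEGFA, STC2, DDIT4 and HIF1A and the highest for EGLN3 and PFKP.

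Scatter among the arrays differed between genes. The median SD of the 41 genes was 0.07 over the empty vector arrays and 0.09 over the SH3GL2 arrays. An SD above 0.25 was seen for 4 genes with SH3GL2 (EGLN3, VEGFA, STC2 and CA2) and for none with empty vector. In all 4, SH3GL2 replicate 2 was the array that stood out, low for VEGFA and STC2 and high for EGLN3 and CA2. Over the 41 genes that array was the highest SH3GL2 array in 17 and the lowest in 12. Other arrays had counts of that size: SH3GL2 replicate 1 was the lowest of its group in 19. Empty vector replicate 2 was the lowest of its group in 18, and empty vector replicate 3 the highest in 17. The signal of the 3′ end over the 5′ end of GAPDH, a measure of RNA quality, ran from 0.31 to 0.37 over the 6 arrays on the log2 scale, and that of ACTB from 2.03 to 2.25, the lowest being SH3GL2 replicate 2. The part of these differences in the results was not tested.

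Other genes of the same pathways, listed with earlier results of these arrays known, were examined beside them. Of 25 other genes of glycolysis, glycogen and the pentose phosphate path, 1 was higher, or 4%, and none was lower in limma. Over all genes 2.54% were higher and 2.36% were lower. Before adjustment 3 of the 25 were higher, or 12%, and 1 lower, or 4%, against 9.94% and 7.56% of all genes. The analysis of variance called 0. The gene was PGM1, which links glycogen to glucose phosphate, with 9.97, 9.94 and 9.86 against 10.17, 10.26 and 10.31, a log2 fold change of 0.32 (adjusted p = 0.0108). Of 10 genes of the pyruvate dehydrogenase complex and pyruvate import, only DLD, the lipoamide dehydrogenase subunit, was called, and it fell by 0.27 (adjusted p = 0.0301). That is 10% of the 10 lower, against 2.36% of all genes. None was higher. At an unadjusted p under 0.05 in limma 1 was higher, or 10%, and 2 were lower, or 20%, against 9.94% and 7.56% of all genes. The PGM1 call was lost without empty vector replicate 3 (adjusted p = 0.0524) or SH3GL2 replicate 3 (adjusted p = 0.0821). The DLD call was lost without empty vector replicate 2 or 3 (adjusted p = 0.140 and 0.125) or SH3GL2 replicate 1 or 3 (adjusted p = 0.0607 and 0.136).

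Of 12 other oxygen-sensing genes, CITED2 alone was called, or 8.33% lower against 2.36% of all genes. Before adjustment 0 were higher and 2 lower, or 16.7%, against 9.94% and 7.56% of all genes. CITED2 is a HIF target that competes with HIF alpha for the coactivators CBP and p300. Its probe set with the highest mean had 9.82, 9.93 and 9.99 with empty vector and 9.20, 9.30 and 9.26 with SH3GL2, so that every SH3GL2 array was lower. It fell by 0.66 on the log2 scale (standard error 0.07, adjusted p = 8.98e-05), and its other probe set fell by 0.54 (adjusted p = 0.0166).

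Of 39 other HIF targets, 4 were higher, or 10.3%, and 6 were lower, or 15.4%, against 2.54% and 2.36% of all genes. Before adjustment 6 were higher, or 15.4%, and 12 lower, or 30.8%, against 9.94% and 7.56% of all genes. Their median log2 fold change was -0.04. FAM162A, a mitochondrial protein induced by hypoxia, rose from 11.49 ± 0.03 to 11.95 ± 0.06 (SD, n = 3) on 1 of 2 probe sets (log2 fold change 0.46, adjusted p = 1.49e-04), and the other had -0.14 (adjusted p = 0.544). With both averaged the difference was 0.16 and did not pass (adjusted p = 0.242). TGFA, a ligand of the EGF receptor, rose by 0.80 on 1 of 3 probe sets (adjusted p = 3.27e-04) with means of 5.80 and 6.60, both under the reference level. Its other probe sets had 0.06 and -0.19, and the average of all 3 had 0.22 and did not pass (adjusted p = 0.207). LOX, the lysyl oxidase that crosslinks collagen, had 6.40, 6.12 and 6.57 with empty vector and 5.32, 5.22 and 5.55 with SH3GL2 on its brightest probe set. It fell by 1.00 there (adjusted p = 4.45e-04) and was lower on 2 of 3 probe sets, with all means under that level. TMEM45A, a membrane protein induced by hypoxia, fell by 0.33 (adjusted p = 0.00257). The rest, named after their values were seen, were TFRC and AK4, which were higher, and IGFBP3, ZNF395, ANXA1 and LOXL2, which were lower. LOXL2 was called on 1 of 3 probe sets, and its others had 0.19 (adjusted p = 0.396) and 0.04 (adjusted p = 0.892). AK4 and IGFBP3 were each called on 1 of 2 probe sets, and the IGFBP3 means lay under the reference level. HIF targets outside the 44 genes were thus called in both directions.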

How the data were processed

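Expression was measured on 6 Affymetrix arrays, 3 per group, grouped by sample title. The authors scanned and analysed them with GCOS software, and the submitters' processing notes name MAS5. The authors deposited log2 values, and how arrays were scaled to each other is not given in the sources used here. They were used as deposited, without offset or filter. Tests left out the 62 Affymetrix controls among 22277 probe sets. Annotation gave 1 symbol to 19064 probe sets, several to 1043 and none to 2108, and 0 symbols needed an update against RefSeq (GRCh38.p14). The comparison used limma 3.58.1 under R 4.3.3, with a two-sided moderated test whose variance prior followed intensity and Benjamini-Hochberg adjustment over 22215 probe sets, threshold 0.05. The study names no test for its arrays. Brackets after a log2 fold change hold its 95% confidence interval. With 3 arrays per group an exact permutation test cannot go below p = 0.1.

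The members and gene lists were chosen with earlier results of these data known. Every member called on at least 1 probe set is described in full, and up to 4 genes of each other list by smallest adjusted p. Alternatives were quantile normalization, median centring, adding 16 before the logarithm, a floor at the reference median, brighter probe sets only, eBayes without a trend or with a robust prior, an analysis of variance, a threshold of 0.01 or of 2-fold, averaging a gene's probe sets, the replicate number as a block and dropping single arrays. In a test on simulated data, where 200 of 22215 probe sets were changed, limma recovered 19.4% of 1.2-fold, 100% of 1.5-fold and 100% of 2-fold changes with 15 false calls. The number of arrays and the signal over background limit precision: the mean of 47.9% of probe sets exceeded the reference level. Plots used matplotlib 3.10.9 under Python 3.11.15.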

Additional observations from a re-analysis of the deposited data

How the results depend on the processing

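Calls were followed through the alternatives for 13 probe sets. They were the 6 called ones of the 41 genes and the brightest ones of PGM1, DLD, CITED2, FAM162A, TGFA, LOX and TMEM45A. The other calls named in the text, such as those of AXL and TFRC, were not followed singly. All 13 kept their direction under every alternative run, and all 13 lost their call under at least 1 of them, the analysis of variance in each case. There 0 of the 41 genes and 0 of their probe sets were called in either direction, as were 0 genes of each other list, with 33 probe sets higher and 44 lower over the whole array. Among the 41 genes, the count of 4 higher was 7 with a replicate block (HK2, EGLN3 and CA12 being added), 2 at an adjusted p under 0.01 and 1 with a change of at least 2-fold, and the count of 0 lower was 1 with median centring, with the floor and without an intensity trend (PDK3 in each), and 1 with the block and among the brighter probe sets (DDIT4 in both). Of the 75 probe sets, 8 were higher and 2 lower with the block, 3 higher and 2 lower with median centring and without a trend, 2 lower with the floor, 2 higher and 0 lower at an adjusted p under 0.01, and 1 higher and 0 lower with a change of at least 2-fold. Arrays of the same replicate number had residual correlations of -0.01, 0.13 and 0.15, so the numbers were not taken as pairs.

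Leaving out 1 array at a time gave 1 to 4 genes higher and 0 lower, and 1 to 6 probe sets higher and 0 to 1 lower, the lowest count of higher genes being that without empty vector replicate 2, when CA2 alone was called higher. Their median log2 fold change was then 0.055 to 0.065. In the same fits 0 to 2 other glycolysis genes were higher and 0 lower, 0 pyruvate dehydrogenase genes were higher and 0 to 1 lower, 0 other oxygen-sensing genes were higher and 1 lower, and 2 to 4 other HIF targets were higher and 5 to 7 lower. Over the whole array 184 to 376 probe sets were higher and 296 to 441 lower, against 441 and 485 with all arrays. Without an intensity trend 0 other glycolysis genes and 2 other HIF targets were higher, 0 pyruvate dehydrogenase genes were lower, and 270 probe sets were higher overall. At an adjusted p under 0.01 other glycolysis genes had 0 higher, pyruvate dehydrogenase genes 0 lower, and the whole array 191 higher and 256 lower. With a change of at least 2-fold these counts were 0, 0, 26 and 35, with 0 other oxygen-sensing genes lower, 0 other HIF targets higher and 1 lower. After averaging each gene's probe sets, 1 other HIF target was higher. The cause of these shifts was not tested. Only 4 of the 41 genes (PFKFB4, PDK1, PDK3 and EGLN3) had both means below the reference level.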
